A study of Drosophila melanogaster with 4 samples.

Results

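The miR-9 family of Drosophila melanogaster comprises the hairpins miR-9a, miR-9b and miR-9c, each of which can give a 5p and a 3p arm (the mature RNAs from the 5′ and 3′ side of the hairpin), 6 arms in all. Their reads were collected from read tables of fly heads by overlap without mismatch over at least 15 nt, and 5 of the 6 arms were matched to reads, out of 484 arms assembled from the same tables. miR-9b-3p was not analysed here, because no sequence of it was at hand. The arms were recognised by short motifs recalled from the public miRNA catalogue and not by a reference file, so that the names rest on those motifs; some motifs were set after the reads had been seen. No member read fitted more than 1 arm.

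Small RNA was sequenced from heads of wild-type male flies (genotype 5905, raised at 25 °C) in 4 libraries. These came from flies aged 30 days with and without oxidation and β-elimination of the total RNA, and from flies aged 3 days with and without it; RNA without oxidation went through a control treatment and is called untreated here. The age tag of 2 libraries, 3-day oxidized and 30-day untreated, contradicts their titles and descriptions, which were followed. Each group was a single library. Differences therefore lack a replicate check, the values compare libraries and not conditions, and intervals cover counting error only.

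MicroRNAs guide Argonaute proteins to messenger RNAs through their seed, the bases from position 2 to 8. Most fly miRNAs are loaded into AGO1; those loaded into AGO2 receive a 2′-O-methyl group on the last ribose from the methyltransferase Hen1. Oxidation with periodate followed by β-elimination removes from the ligatable pool RNAs whose last ribose has free hydroxyls, so methylated RNAs are over-represented in an oxidized library. In flies, miR-9a is best known for acting through the transcription factor gene senseless to keep the number of sensory organ precursors exact, and in vertebrates miR-9 is abundant in neural tissue. The libraries were whole heads, which hold brain, eye, muscle, fat body and cuticle, so the cell type behind a read is not known, and fewer cells of a type cannot be told apart from less RNA per cell.

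In the BDGP6 annotation mir-9a lies on chromosome 3L from 19565131 to 19565208 (plus strand), in an exon of the only spanning transcript of lncRNA:CR45916. On chromosome 2L, mir-9c (16697924 to 16698015) and mir-9b (16698744 to 16698834) flank mir-306 and mir-79 on the plus strand. All 4 lie in introns of all 5 spanning transcripts of grp, the fly homologue of the checkpoint kinase gene Chk1. Coordinates were taken by gene name; the submitters' processing notes name the build dm3, and the reads were not placed on a genome.

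The sequences below are reads copied from the deposited tables, in DNA letters, 5′ to 3′. Capitals mark the seed. The first 3 are the 5p forms with the most reads over the 4 libraries and show that the paralogs share their seed and differ behind it.
miR-9a-5p, 23 nt: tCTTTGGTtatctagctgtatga
miR-9b-5p, 22 nt: tCTTTGGTgattttagctgtat
miR-9c-5p, 21 nt: tCTTTGGTattctagctgtag
The next 4 are the shorter or longer 5p forms on which the results below turn.
miR-9a-5p, 20 nt: tCTTTGGTtatctagctgta
miR-9b-5p, 21 nt: tCTTTGGTgattttagctgta
miR-9c-5p, 22 nt: tCTTTGGTattctagctgtaga
miR-9c-5p, 16 nt: tCTTTGGTattctagc
The last 4 are 3p forms, in which a start 1 base earlier gives another seed.
miR-9a-3p, earlier start: aTAAAGCTagcttaccgaagtta
miR-9a-3p, later start: tAAAGCTAgcttaccgaagtta
miR-79-3p: tAAAGCTAgattaccaaagc
miR-9c-3p: tAAAGCTTttataccaaagct

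The 3 5p arms were identical over their first 8 bases and shared a second stretch of 8 bases, tagctgta, near the 3′ end. This stretch ended at base 20 in miR-9a-5p and miR-9c-5p and at base 21 in miR-9b-5p, which has 1 base more between the shared stretches. The later-start form of miR-9a-3p had the seed of miR-79-3p, whereas miR-9c-3p had a seed of its own that no other arm carried in these tables.

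The libraries held 12105527 reads (30 days, oxidized), 17345816 (30 days, untreated), 2091252 (3 days, oxidized) and 16112748 (3 days, untreated). Levels are in RPM, the read count relative to all reads of the table. A count of 0 allows up to 3 counts, equal to 0.248, 0.173, 1.43 and 0.186 RPM in the same order. All 14 arms of a list of neural miRNAs, named from recalled motifs in the same way, were found. miR-1-3p, the muscle marker, was looked for in the same way but not analysed here, because no arm matched its recalled seed.

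miR-9a-5p, the leading arm of the family in 3 of the 4 libraries, had 724 RPM at 30 days oxidized and 5074 RPM at 30 days untreated. At 3 days it had 1060 RPM oxidized and 5183 RPM untreated. It ranked 49 and 24 by reads among all arms at 30 days and 48 and 21 at 3 days, oxidized and untreated. Both untreated libraries were thus high and close to each other, and both oxidized libraries were low.

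miR-9c-5p had 337 RPM at 30 days oxidized and 2116 RPM at 30 days untreated. At 3 days it had 1488 RPM oxidized and 3687 RPM untreated. It was lower after oxidation at both ages and lower at 30 days in both treatments, and in the 3-day oxidized library it exceeded miR-9a-5p.

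miR-9b-5p, from the same cluster as miR-9c, had 32.8 RPM at 30 days oxidized, 234 RPM at 30 days untreated, 48.8 RPM at 3 days oxidized and 274 RPM at 3 days untreated. The 3 5p arms put the libraries in the same order, lowest at 30 days oxidized and highest at 3 days untreated, with miR-9c-5p spread most between the oxidized libraries.

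miR-9a-3p ran the other way. It had 123 RPM at 30 days oxidized and 14.5 RPM at 30 days untreated, and 131 RPM at 3 days oxidized and 18.3 RPM at 3 days untreated. miR-9c-3p had 0 and 6 reads at 30 days and 0 and 15 reads at 3 days, oxidized and untreated. At 3 days its untreated level of 0.931 RPM lay below the limit of the oxidized library, so a difference was not detectable at this depth, and at 30 days the comparison rested on 6 reads.

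**Figure D1:**
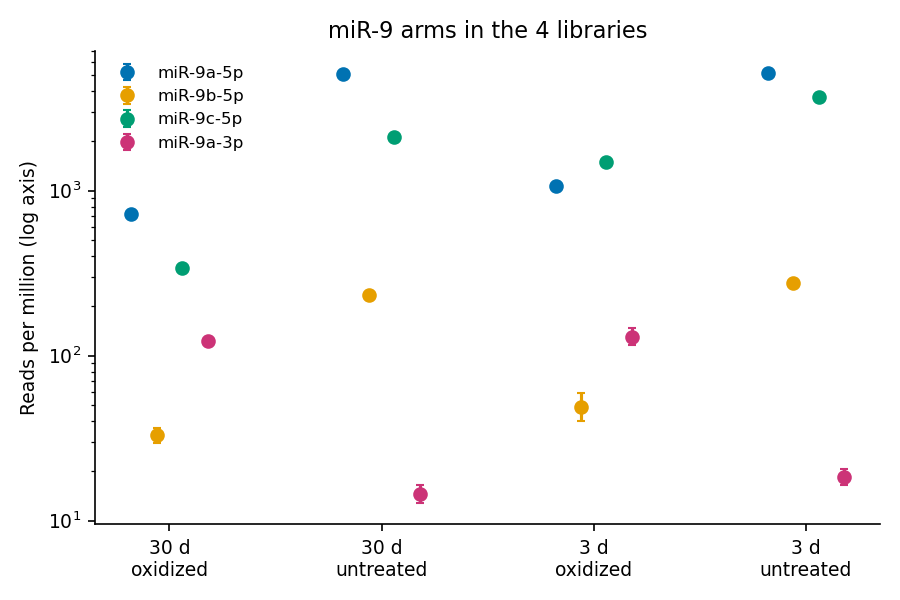
Levels of 4 miR-9 arms in RPM (log axis) in the 4 libraries; bars are 95% Poisson intervals on the counts, often smaller than the points. The 5p arms are lower in the oxidized libraries and miR-9a-3p is higher there, at 123 and 131 RPM against 14.5 and 18.3 RPM in the untreated libraries.

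The first question of the design is which arms withstand oxidation. In RPM, all 3 5p arms were lower in the oxidized library than in the untreated one at both ages, by 2-fold or more. At 30 days miR-9a-5p was 7.01-fold lower (log2 ratio -2.81, 95% interval -2.84 to -2.78), miR-9b-5p was 7.12-fold lower (log2 -2.83, -2.98 to -2.68), and miR-9c-5p was 6.27-fold lower (log2 -2.65, -2.70 to -2.60). At 3 days miR-9b-5p was 5.61-fold lower (log2 -2.49, -2.79 to -2.20) and miR-9a-5p was 4.89-fold lower (log2 -2.29, -2.35 to -2.23). miR-9c-5p was 2.48-fold lower at 3 days (log2 -1.31, -1.36 to -1.26), and its interval did not meet those of its paralogs; with totals that leave out the top arm its ratio was -0.98, just short of 2-fold.

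Arms were counted from a mean level of 100 RPM and from 50 reads in the libraries being compared, a filter that 3 of the 6 members passed in the oxidation comparisons. At 30 days, 3 of these 3 were at least 2-fold lower, as were 51.1% of the 92 arms past the filter, and 0 of the 3 were at least 2-fold higher, against 30.4% of all arms. At 3 days, 3 of 3 were lower, against 42.7% of 96 arms, and 0 of 3 were higher, against 36.5%. Being lower was thus common among all arms. miR-9b-5p passed only through the untreated libraries, with 32.8 and 48.8 RPM in the oxidized ones at 30 and 3 days. miR-9a-3p did not pass, so these counts follow in part from the filter. With the filter on the untreated library alone, 3 of 3 members were lower at each age. The shares of all arms that were lower were then 58.9% of 90 at 30 days and 51.1% of 92 at 3 days. Within the order of all arms, counted from the lowest ratio, the 5p arms of miR-9b, miR-9a and miR-9c stood at ranks 13, 14 and 20 of 92 at 30 days and at ranks 3, 5 and 36 of 96 at 3 days.

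Ratios in RPM depend on the scaling of the library, because abundant arms that withstand oxidation lower the share of all others. TMM factors, median-of-ratios factors and totals without the top arm moved the median arm by 0.56, 0.65 and 0.76 (log2) at 30 days and by -0.78, -0.02 and 0.33 at 3 days. At 3 days TMM factors put 56 arms lower and 29 higher, against 41 and 35 with all reads. The 5p arms stayed lower and miR-9a-3p higher under each of these scalings. The distance to the median arm does not depend on them. It was -1.55, -1.57 and -1.39 on the log2 scale for miR-9a-5p, miR-9b-5p and miR-9c-5p at 30 days, and -1.66, -1.85 and -0.68 at 3 days. In the neural list, 9 of the 11 arms past the filter were lower by 2-fold or more at each age, and their medians were -2.26 at 30 days and -1.58 at 3 days, beside -1.26 and -0.63 over all arms and beside the 51.1% and 42.7% of all arms that were lower. A list of 4 fat body arms, named in the same way, had 3 of 4 lower at each age, with medians of -2.39 at 30 days and -1.47 at 3 days. Most arms of both lists were thus lower after oxidation. In each list 1 arm was at least 2-fold higher at each age, beside 30.4% and 36.5% of all arms. These were miR-125-5p (2.48 at 30 days, 1.67 at 3 days) and miR-33-5p (1.42 and 1.92).

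miR-9a-3p did not pass the level filter in the oxidation comparisons. Its level was 8.48-fold higher in the oxidized library at 30 days (log2 3.09, 2.89 to 3.28) and 7.13-fold higher at 3 days (log2 2.83, 2.59 to 3.08). As a share of the reads of its hairpin, which needs no scaling, the 3p arm took 14.6% (exact Clopper-Pearson 95% interval 13.9 to 15.3) at 30 days oxidized and 0.286% (0.251 to 0.323) at 30 days untreated. At 3 days it took 10.97% (9.77 to 12.3) oxidized and 0.352% (0.313 to 0.395) untreated. The 2 strands of the miR-9a hairpin therefore moved in opposite directions after oxidation at both ages.

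**Figure D2:**
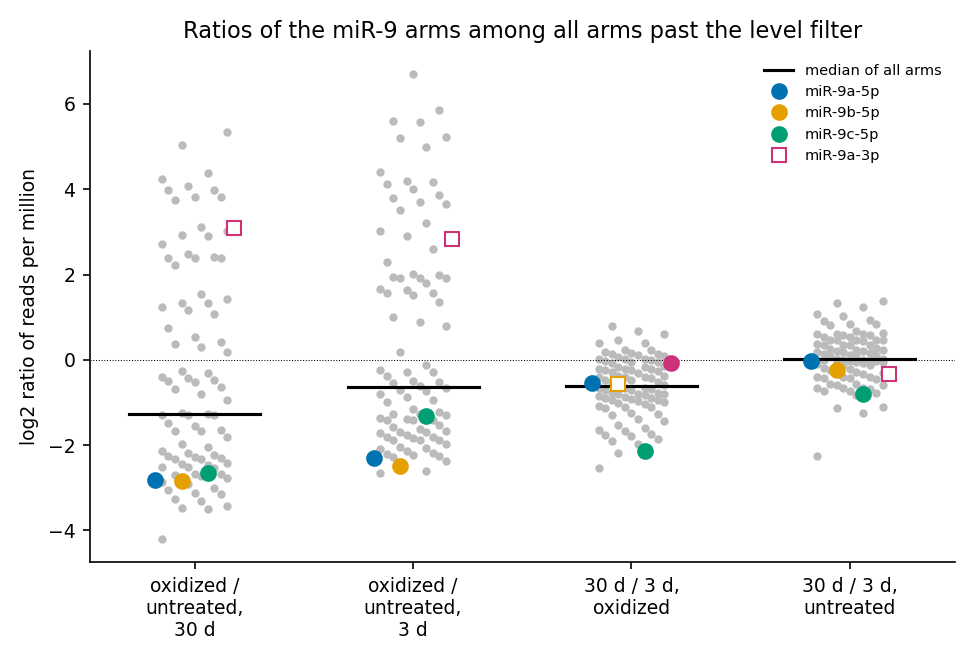
Log2 ratios of all arms past the level filter (grey) in 4 comparisons, with the miR-9 arms in colour, open squares for arms below the filter and black bars for the median of all arms. After oxidation the 5p arms lie between -2.83 and -1.31, below the median arm, and miR-9a-3p lies at 3.09 and 2.83.

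The higher level of miR-9a-3p came mainly with its earlier start, 1 base before the start most used at 3 days untreated. Reads with the earlier start made up 79.9% (77.8 to 81.9) of the arm at 30 days oxidized and 35.3% (29.4 to 41.6) at 30 days untreated. At 3 days they made up 66.3% (60.4 to 71.9) oxidized and 19.7% (15.3 to 24.7) untreated. The earlier start was therefore the majority in both oxidized libraries and the minority in both untreated ones.

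In RPM the earlier-start reads were at 98.5 and 5.13 at 30 days and at 86.6 and 3.60 at 3 days, oxidized and untreated, a log2 ratio of 4.26 (3.95 to 4.59) at 30 days and 4.59 (4.15 to 5.04) at 3 days. The later-start reads had log2 ratios of 1.37 (1.08 to 1.65) at 30 days and 1.58 (1.22 to 1.93) at 3 days. Between these forms the seed is shifted by 1 base. The untreated libraries held only 252 and 295 reads of the arm, at 30 and 3 days.

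**Figure D3:**
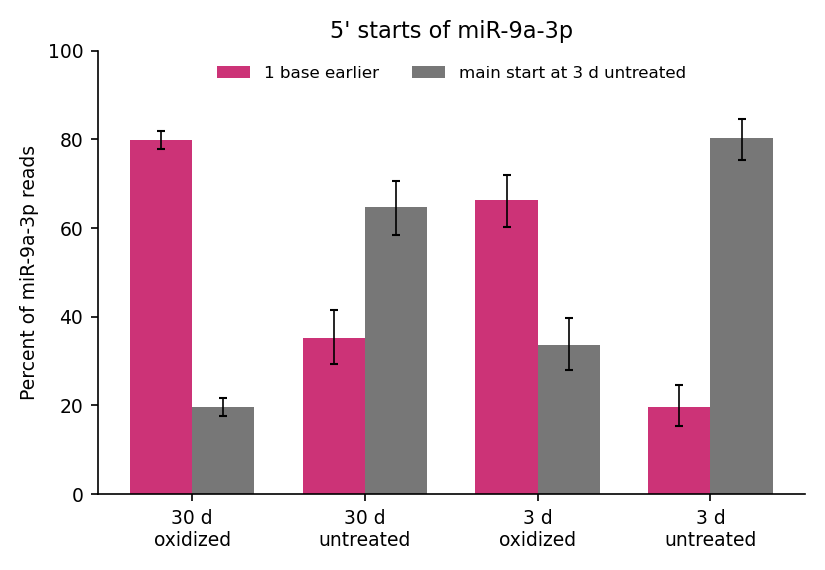
Percent of miR-9a-3p reads that begin at the start most used at 3 days untreated (grey) or 1 base earlier (pink) in each library, with exact 95% intervals. The earlier start has 79.9% and 66.3% in the oxidized libraries against 35.3% and 19.7% in the untreated ones.

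miR-79-3p, the neighbour in the mir-9b and mir-9c cluster with the same seed as the later-start form, also had more RPM after oxidation. It had 27.8 RPM oxidized and 13.6 RPM untreated at 30 days, and 36.8 RPM oxidized and 14.1 RPM untreated at 3 days. Its starts went the other way, since its earlier-start reads had a log2 ratio of -0.90 (-1.52 to -0.30) at 30 days and -1.36 (-3.02 to -0.09) at 3 days. One form of 20 nt took 79.8% and 85.7% of miR-79-3p in the oxidized libraries at 30 and 3 days, against 31.1% and 23.8% in the untreated ones. miR-306-5p, the remaining neighbour, had 231 RPM oxidized and 736 RPM untreated at 30 days, and 409 RPM oxidized and 624 RPM untreated at 3 days.

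Most 5p reads began at 1 start in every library. miR-9a-5p began at its main start in 98.3% of reads at 30 days oxidized, 99.7% at 30 days untreated, 99.5% at 3 days oxidized and 99.7% at 3 days untreated. miR-9c-5p did so in at least 99.6% in every library. The lowest value was 95.2% (92.6 to 97.1), for miR-9b-5p at 30 days oxidized, against 99.7% (99.5 to 99.9) at 30 days untreated. Starts 1 base later were 1.14% (0.930 to 1.39) of miR-9a-5p at 30 days oxidized and 0.0307% (0.0202 to 0.0446) at 30 days untreated. In both arms the intervals did not meet, so the main start had a slightly smaller share after oxidation at 30 days. Of these later starts in miR-9a-5p, the most frequent at 30 days oxidized was a 19 nt form, with 52 reads at 30 days oxidized and 0 in the other libraries; it ended at the same base as the 20 nt form.

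The 3′ ends varied more. The mean length of miR-9a-5p was 21.2 nt oxidized and 22.3 nt untreated at 30 days, and 21.8 nt oxidized and 22.4 nt untreated at 3 days. That of miR-9b-5p was 21.4 and 22.2 nt at 30 days and 21.2 and 22.1 nt at 3 days, and that of miR-9c-5p was 20.4 and 21.6 nt at 30 days and 20.4 and 21.3 nt at 3 days, oxidized and untreated. All 3 arms were shorter in the oxidized library at both ages. The difference lay mostly in short reads at 3 days, and for miR-9c-5p at 30 days as well. With only reads of 20 to 25 nt it was -0.077, -0.11 and -0.11 nt at 3 days for miR-9a-5p, miR-9b-5p and miR-9c-5p, and -0.69, -0.56 and -0.26 nt at 30 days.

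Shortening was common: 59 of 92 arms were shorter after oxidation at 30 days and 63 of 96 at 3 days, by a median over all arms of -0.15 and -0.09 nt. The differences of miR-9c-5p, miR-9a-5p and miR-9b-5p at 30 days, -1.11, -1.05 and -0.87 nt, had ranks 4, 5 and 8 of 92 from the most negative. At 3 days miR-9b-5p, miR-9c-5p and miR-9a-5p had -0.89, -0.88 and -0.58 nt, at ranks 7, 8 and 11 of 96.

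Reads of 16 to 19 nt took a larger share after oxidation in all 3 arms at both ages, as they did in 59 of 92 arms at 30 days and 70 of 96 at 3 days. Counted from the largest increase, miR-9c-5p, miR-9a-5p and miR-9b-5p had ranks 6, 16 and 18 at 30 days, and miR-9b-5p, miR-9c-5p and miR-9a-5p had ranks 5, 7 and 14 at 3 days. They were 10.4% (9.73 to 11.01) of miR-9a-5p at 30 days oxidized and 1.46% (1.38 to 1.54) at 30 days untreated, and 9.84% (8.63 to 11.2) at 3 days oxidized and 0.802% (0.743 to 0.865) at 3 days untreated. For miR-9c-5p the shares were 21.5% and 0.823% at 30 days and 18.7% and 0.975% at 3 days, oxidized and untreated, and for miR-9b-5p 10.6% and 2.84% at 30 days and 20.6% and 1.84% at 3 days. The 20.6% of miR-9b-5p rested on 21 of 102 reads (13.2 to 29.7), and its interval held the 18.7% of miR-9c-5p. Over the whole tables, reads of 16 to 19 nt made up 1.65% and 2.38% at 30 days and 1.40% and 0.784% at 3 days, oxidized and untreated, so at 30 days the whole library held a smaller share of short reads after oxidation.

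The 16 nt form of miR-9c-5p had 30.6 RPM oxidized and 5.88 RPM untreated at 30 days, and 154 RPM oxidized and 10.1 RPM untreated at 3 days. Its log2 ratio was 2.38 (2.06 to 2.71) at 30 days and 3.93 (3.65 to 4.21) at 3 days, while that of the 21 nt form was -2.52 (-2.59 to -2.45) and -1.45 (-1.52 to -1.38). The short and long forms of the same arm thus moved in opposite directions. A read of 16 nt carries little sequence, and whether such reads came from another locus was not tested.

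**Figure D4:**
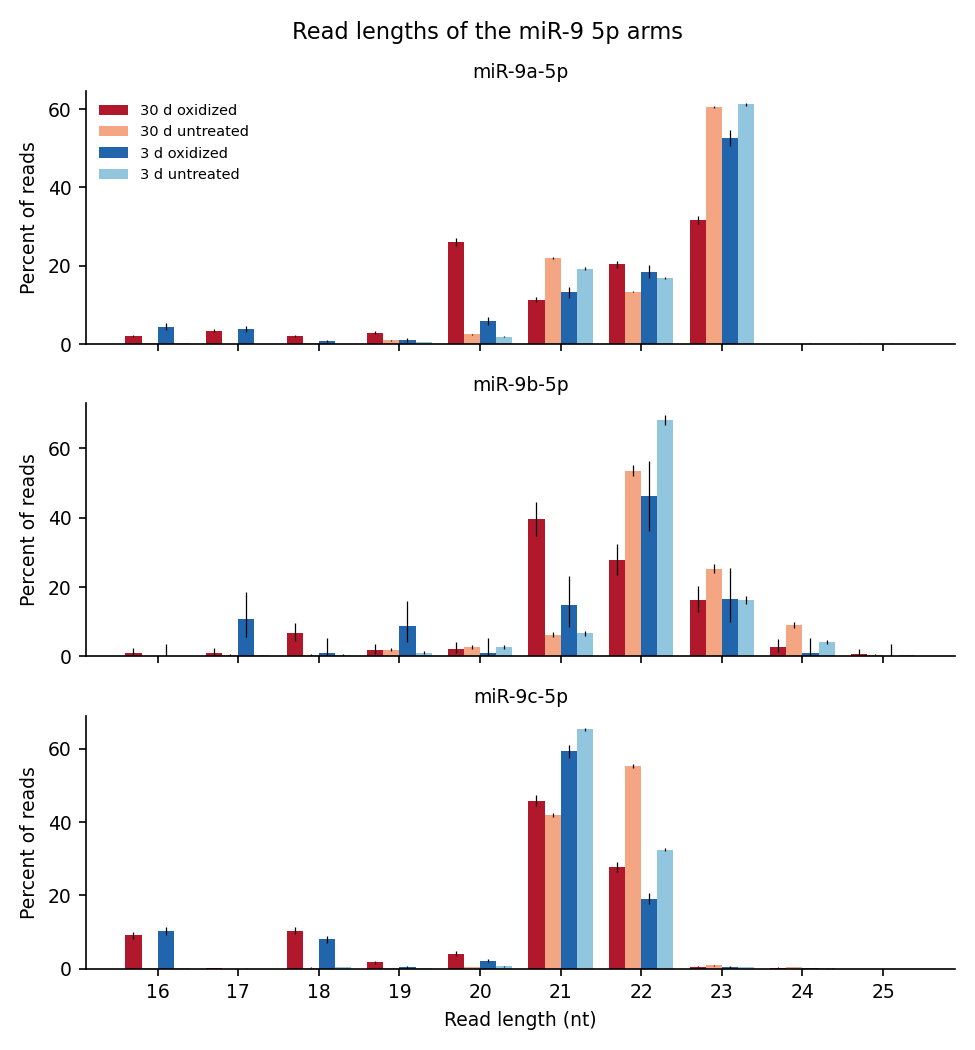
Percent of reads by length (16 to 25 nt) of the 5p arms in the 4 libraries, with exact 95% intervals. In the 30-day oxidized library miR-9a-5p has a second mode at 20 nt with 26.04% and miR-9b-5p its highest share at 21 nt with 39.6%.

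Read from the 3′ end, the forms of the paralogs that ended with the shared stretch tagctgta behaved differently from forms 1 base longer. In miR-9a-5p these reads made up 26.8% (25.8 to 27.7) at 30 days oxidized and 2.53% (2.43 to 2.64) at 30 days untreated, and 5.87% (4.92 to 6.93) at 3 days oxidized and 1.89% (1.79 to 1.98) at 3 days untreated. In miR-9b-5p they made up 42.8% (37.9 to 47.8) and 6.25% (5.52 to 7.03) at 30 days, and 14.7% (8.47 to 23.1) and 6.67% (5.95 to 7.45) at 3 days, oxidized and untreated. In miR-9c-5p they made up 3.92% (3.34 to 4.56) and 0.251% (0.202 to 0.307) at 30 days, and 2.09% (1.62 to 2.66) and 0.492% (0.437 to 0.551) at 3 days. The share was higher after oxidation in all 3 paralogs at both ages, and highest at 30 days oxidized.

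At 30 days the log2 oxidation ratio of reads ending with the stretch was 0.59 (0.51 to 0.68) in miR-9a-5p, -0.05 (-0.34 to 0.23) in miR-9b-5p and 1.32 (0.94 to 1.70) in miR-9c-5p. Reads ending 1 base further had ratios of -3.81 (-3.91 to -3.72), -3.78 (-4.07 to -3.50) and -2.52 (-2.59 to -2.45) in the same order. At 3 days the ratios at the end of the stretch were -0.65 (-0.92 to -0.39), -1.35 (-2.20 to -0.60) and 0.78 (0.37 to 1.17), and 1 base further they were -2.88 (-3.05 to -2.71), -3.05 (-3.50 to -2.64) and -1.45 (-1.52 to -1.38). The gap between the 2 ends does not depend on scaling and was present in each paralog at each age. However, the ratio did not fall steadily along the 3′ end. At 30 days, reads ending 1 base before the end of the stretch had lower ratios than those at it. These were -1.58, -3.91 (5 oxidized reads) and 0.69 in the same order. Some shorter ends were higher, with 3.08 in miR-9a-5p 3 bases before the end of the stretch and 2.38 in miR-9c-5p 4 bases before it.

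**Figure D5:**
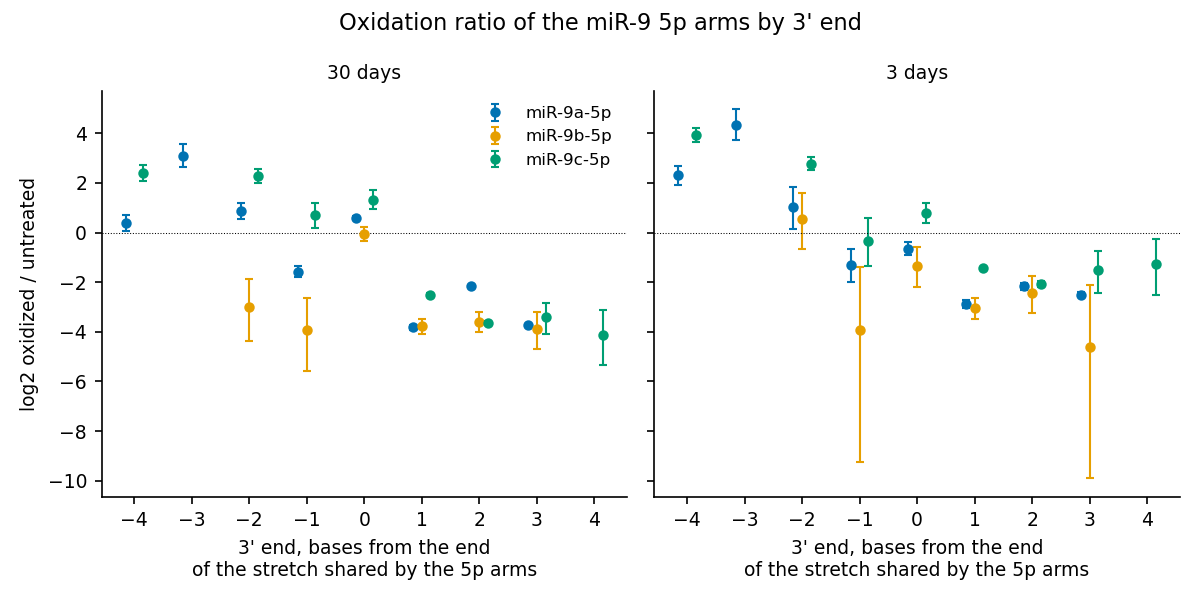
Log2 oxidation ratio of the 5p arms by 3′ end, counted in bases from the end of the stretch that the paralogs share, at 30 and 3 days, for ends with at least 100 reads over the 4 libraries; bars are 95% counting intervals. Ends beyond 0 lie below the dotted line in all 3 arms, while at 0 the ratios at 30 days are 0.59, -0.05 and 1.32.

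The 20 nt form of miR-9a-5p was the only listed form of the family, among those with at least 50 reads, whose direction differed between the ages with both intervals clear of 0. It had 188 RPM oxidized and 128 RPM untreated at 30 days (2277 and 2227 reads), and 62.2 RPM oxidized and 97.6 RPM untreated at 3 days (130 and 1573 reads). Its log2 oxidation ratio was 0.55 (0.47 to 0.64) at 30 days and -0.65 (-0.92 to -0.39) at 3 days, a difference of 1.20 (0.93 to 1.47). The 23 nt form of the same arm had -3.74 (-3.80 to -3.69) at 30 days and -2.51 (-2.59 to -2.42) at 3 days. The 20 nt form thus stood above the 23 nt form at both ages, and by more at 30 days, a gap within 1 arm that no scaling changes.

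The second question is what changes with age. Without oxidation miR-9a-5p differed little between 30 and 3 days (log2 ratio -0.03, -0.04 to -0.02), miR-9b-5p was 1.17-fold lower at 30 days (log2 -0.23, -0.29 to -0.17), and miR-9c-5p was 1.74-fold lower (log2 -0.80, -0.82 to -0.78). Of the 3 members past the filter, 0 were at least 2-fold lower, against 4.35% of 92 arms, and 0 were at least 2-fold higher, against 5.43%. miR-9c-5p stood at rank 6 of 92 from the lowest, and miR-9b-5p and miR-9a-5p at ranks 29 and 39. The median arm was at 0.01, and the scalings tried moved it by at most 0.06.

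Among oxidized libraries miR-9c-5p was 4.41-fold lower at 30 days (log2 -2.14, -2.21 to -2.07), whereas miR-9a-5p was 1.46-fold lower (log2 -0.55, -0.62 to -0.48). The members past the filter here were miR-9a-5p, miR-9c-5p and miR-9a-3p, of which 1 was at least 2-fold lower, against 26.6% of 94 arms, and 0 were higher, against 0%. miR-9a-3p had a log2 ratio of -0.08 (-0.27 to 0.11) and miR-9b-5p, below the filter, -0.57 (-0.89 to -0.24). Scaling moved the median arm by 1.28 with TMM factors, 0.63 with median-of-ratios factors and 0.47 without the top arm. The arms lower and higher by 2-fold were then 1 and 33, 12 and 6, and 14 and 3, against 25 and 0 with all reads. miR-9c-5p was lower at 30 days under each of them, at -0.86, -1.51 and -1.67, while miR-9a-5p changed sign with the first 2, at 0.73 and 0.08, and was at -0.08 without the top arm. Against the median arm, which was at -0.62, miR-9c-5p lay at -1.52, rank 4 of 94, miR-9a-5p at 0.07 and miR-9a-3p at 0.54.

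The oxidation ratio of miR-9c-5p was 1.34 lower on the log2 scale at 30 days than at 3 days (-1.34, -1.41 to -1.27). The same change was -0.52 (-0.59 to -0.45) for miR-9a-5p and -0.34 (-0.66 to -0.02) for miR-9b-5p. Past 2-fold, 1 of the 3 members was lower, against 29.5% of 95 arms, and 0 were higher, against 0%. This change depended on scaling, in direction for miR-9a-5p and miR-9b-5p and in size for miR-9c-5p. Values follow for TMM factors, median-of-ratios factors and totals without the top arm, in this order. The change was 0.0027, -0.67 and -0.91 for miR-9c-5p, 0.82, 0.15 and -0.09 for miR-9a-5p, and 0.998, 0.33 and 0.08 for miR-9b-5p. The median arm moved by 1.34 with TMM factors, 0.67 with median-of-ratios factors and 0.43 without the top arm, and the arms lower and higher by 2-fold were then 2 and 23, 6 and 4, and 9 and 1, against 28 and 0 with all reads. Relative to the median arm, at -0.77, miR-9c-5p lay at -0.57, miR-9a-5p at 0.25 and miR-9b-5p at 0.43, whichever scaling was used.

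The composition of the family shifted accordingly. miR-9c-5p gave 30.8% (30.1 to 31.6) of the 5p reads of the family at 30 days oxidized and 57.3% (56.0 to 58.6) at 3 days oxidized. Untreated, it gave 28.5% (28.2 to 28.8) at 30 days and 40.3% (40.1 to 40.6) at 3 days. miR-9a-5p gave 66.2% at 30 days and 40.8% at 3 days oxidized, and 68.4% at 30 days and 56.7% at 3 days untreated. miR-9b-5p gave 3.00% and 1.88% oxidized and 3.15% and 2.99% untreated, at 30 and 3 days.

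The read lengths of miR-9c-5p and miR-9b-5p also differed with age. Without oxidation, reads of 22 nt were 55.3% (54.7 to 55.8) of miR-9c-5p at 30 days and 32.4% (32.1 to 32.8) at 3 days. The 22 nt form itself had 1168 RPM at 30 days and 1191 RPM at 3 days, while the 21 nt form had 888 RPM at 30 days and 2409 RPM at 3 days. The lower level of miR-9c-5p at 30 days thus lay mainly in the 21 nt form. In the oxidized libraries reads of 22 nt were 27.7% (26.4 to 29.1) at 30 days and 19.2% (17.8 to 20.6) at 3 days.

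In miR-9b-5p, reads of 23 nt were 25.2% (23.9 to 26.6) at 30 days and 16.3% (15.2 to 17.4) at 3 days without oxidation, and reads of 24 nt were 8.94% and 4.20%. Mean length was 0.26 nt higher at 30 days in miR-9c-5p and 0.16 nt higher in miR-9b-5p, and it was -0.07 nt in miR-9a-5p. Among all arms without oxidation, 78 of 92 were shorter at 30 days, with a median of -0.15 nt. Counted from the largest increase, miR-9c-5p had rank 2 and miR-9b-5p rank 5 of 92, and miR-9a-5p had rank 27. The paralogs of the 2L cluster were thus among the 14 arms that were longer at 30 days.

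Over the 4 libraries, the arm whose centred log2 RPM lay nearest to miR-9a-5p was miR-9b-5p, at a Euclidean distance of 0.18, out of 95 arms with a mean of at least 100 RPM. Next came an arm without a name and miR-210-3p, at 0.31 and 0.37. For miR-9b-5p the 3 nearest were miR-9a-5p and 2 unnamed arms, at 0.18, 0.26 and 0.36. The nearest to miR-9c-5p were an unnamed arm, miR-957-3p and another unnamed arm, at 0.38, 0.48 and 0.56, while miR-9b-5p, from the same cluster, lay at 1.36. The median distance from miR-9c-5p to all arms was 1.92. These distances rest on 4 points that share library scaling, and are a description only.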

How the data were processed

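Small RNA of male fly heads was measured in 4 libraries (TruSeq small RNA kit, HiSeq2000, per the labels' protocols). The authors deposited 1 table of raw counts per library, a read sequence and its number of reads, without names or coordinates. Per the submitters' processing notes, CASAVA 1.8.2, Bowtie and dm3 were used, in roles not stated there. Sequences listed more than once had equal counts and were counted once.

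Reads of up to 30 nt were grouped into arms by overlap without mismatch over at least 15 nt within 34 nt; 5406 sequences were assigned, and 130 that fitted more than 1 arm were left out. Names came from motifs of 6 or 7 bases recalled from memory, and from no sequence file. Ratios carry exact intervals (Clopper-Pearson, given the count of both libraries together), age changes Poisson intervals on the log scale, and shares exact binomial intervals, all at 95%. Without molecular identifiers they cover counting error only. With 1 library per group no test was run; "called" means at least 2-fold. The ratio intervals were run on simulated Poisson counts for oxidation at 30 days only. Such counts follow the assumption of the intervals and hold no spread between replicate libraries, so this run cannot show how replicates would differ. Named arms are the 6 members, neighbours mir-79 and mir-306, the 3 nearest arms of each 5p arm and the 3 most abundant reads of each member; miR-4-3p was not analysed here. Other reads were named where a result turned on them, after their values were seen. Members and lists were chosen with earlier results of these data known. Python 3 with scipy, and edgeR 4.0.16 in R 4.3.3 for scaling factors, were used.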

Additional observations from a re-analysis of the deposited data

Results flagged for a closer look

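The 20 nt form of miR-9a-5p moved in opposite directions after oxidation at the 2 ages. Its log2 oxidation ratio was 0.55 at 30 days and -0.65 at 3 days, an age change of 1.20. With 1 library per group this difference was not tested across replicates; the counting intervals of the 2 ratios did not meet. It was picked out among the listed forms after their values were seen. In alternatives chosen after seeing the data, the ratio was 1.11, 1.21 and 1.31 at 30 days and -1.44, -0.67 and -0.32 at 3 days with TMM factors, median-of-ratios factors and totals without the top arm, so that the direction at each age was the same under these 3 scalings.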

How the results depend on the processing

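Log2 ratios of the summed miR-9 arms are given as oxidation at 30 days, oxidation at 3 days, age with oxidation, age without oxidation, and age change of the oxidation ratio. As reported they were -2.61, -1.75, -1.16, -0.30 and -0.86. TMM factors gave -2.05, -2.53, 0.11, -0.36 and 0.48, so that age with oxidation and the age change turned direction; the change of miR-9c-5p became 0.0027. Median-of-ratios factors gave -1.96, -1.77, -0.53, -0.34 and -0.19. Totals that leave out each library's top arm gave -1.85, -1.42, -0.70, -0.26 and -0.44. An overlap of 18 nt gave -2.70, -1.88 and -1.12 for the first 3 and -0.81 for the age change. Without miR-9a-5p, the most abundant member, they were -2.26, -1.26, -1.76, -0.75 and -1.005. The cause was not tested.

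With a filter of 10 RPM, 1 member (miR-9a-3p) was at least 2-fold higher after oxidation at each age, as were 29.8% of 151 arms at 30 days and 37.8% of 164 at 3 days. At 1.5-fold 1 member (miR-9c-5p) was lower at 30 days without oxidation, as were 15.2% of 92 arms. With only reads of 20 to 25 nt, the length difference after oxidation was -0.69, -0.56 and -0.26 nt at 30 days and -0.077, -0.11 and -0.11 nt at 3 days for miR-9a-5p, miR-9b-5p and miR-9c-5p, since the short reads are left out. Counting reads of more than 1 paralog changed nothing, as 0 such sequences were found. Reads with 1 to 3 bases beyond the match could not be checked. Reads of up to 30 nt had already been placed in an arm or set aside, so 0 were left to count. An unnamed arm also carried the seed of the 5p arms, in very few reads, and whether these were such reads was not tested. No paired analysis was possible because each group had 1 library. The 3-day oxidized library, with the fewest reads, limits scarce arms: miR-9b-5p had 102 reads there. Reads were not placed on a genome, so templated and added 3′ bases were not told apart.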
